A study of Mus musculus musculus x Mus musculus castaneus with 12 samples.

Results

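The genes described here are 10 genes of neural progenitors and early neurons, *Nes*, *Pax6*, *Sox1*, *Sox11*, *Hes1*, *Hes5*, *Zfp521*, *Tubb3*, *Ncam1* and *Nefl*, followed by bulk RNA-seq in undifferentiated mouse embryonic stem (ES) cells. They were taken by gene symbol from the 24346 genes of the count tables, and all 10 were present. The 12 libraries came from F1 hybrid ES cells that carry 1 chromosome set of C57BL/6 J (BL6) and 1 of *Mus castaneus* (cast). BC cells had a BL6 mother, whereas the mother of CB cells was cast. The groups were unedited male BC cells (male BC wt, n = 2), male BC cells with a deletion in the X-linked gene *Kdm6a* (male BC KO, n = 3, clones ΔE1, ΔE3 and ΔP4), unedited female BC cells (female BC wt, n = 2), unedited male CB cells (male CB wt, n = 2) and male CB cells with a *Kdm6a* deletion (male CB KO, n = 3, ΔE2.5, ΔE2.7, ΔP2.1). All cells had been kept in serum with leukemia inhibitory factor on inactivated embryonic fibroblasts, which were reduced by plating on gelatin before use. Each KO library is 1 clone, ΔE1 and ΔE3 go back to a single editing event and share a second deletion on the X chromosome, and the CB wt line carries an actin-GFP transgene, so that cross and line cannot be told apart. The labels number the wt replicates without saying how they were separated, and a p-value therefore measures the spread between these libraries. Fragments assigned to genes numbered 68457338 to 89070402 in BC libraries and 49975599 to 53407103 in CB libraries.

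Neural progenitors divide in the neural tube and express a core of transcription factors, among them SOX1 and PAX6, together with the intermediate filament nestin. Notch signalling between neighbouring cells keeps them from differentiating through the repressors HES1 and HES5, and cells that leave this state build neuronal tubulin and neurofilaments. Undifferentiated ES cells make low levels of several of these genes, and many developmental genes in them carry the repressive histone mark H3K27me3. KDM6A, the product of *Kdm6a*, is a demethylase that removes this mark.

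The edits that define the clones were made with pairs of guides, shown because they set which exons were lost. A ΔE clone lacks exons 2 to 4, and a ΔP clone lacks the promoter with exons 1 and 2. Capitals mark the PAM at the 3′ end of each guide. The ΔE Left guide matched exon 2 of *Kdm6a* on the minus strand at chrX:18163390-18163409 of GRCm38, and the others were not located here.
ΔE Left: gaaacctcacgaacccgaaaAGG
ΔE Right: tagcattatctgcataccagAGG
ΔP Left: ggacactgcatgtttgatggAGG
ΔP Right: agctacatactccaaaggagAGG

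*Kdm6a* was at 49.8 and 51.3 TPM in BC wt and came to 11.6 (ΔE1), 13.5 (ΔE3) and 0.0441 TPM (ΔP4). TPM is the number of fragments per kilobase of transcript, scaled to the same total in every library, so that it compares levels between genes as well as between libraries. In CB it was at 51.0 and 51.7 TPM in wt and at 2.07 (ΔE2.5), 7.28 (ΔE2.7) and 0.0364 TPM (ΔP2.1). Both female wt libraries were at 65.0 TPM. All 6 clones were below the wt of their cross, and the exonic clones kept 4.03% to 26.7% of the wt level, counted over the whole gene. The study reported that transcript from behind the deletion remained at a low level in exonic clones, whereas Western blots detected no KDM6A protein.

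Some libraries stood apart before any neural gene was considered. In CB wt, 364 of 9933 autosomal genes with enough SNP fragments showed 1 allele, and 77 of these showed both alleles in ΔP2.1 against 0 in ΔE2.5 and 0 in ΔE2.7. Conversely, 104 of the 8702 genes with both alleles in CB wt showed 1 allele in ΔP2.1, against 6 in ΔE2.5 and 1 in ΔE2.7. The allele shares of ΔP2.1 thus differ from those of the CB wt line at these genes. For CB KO, the numbers of genes called by the main test (edgeR, below) are given with and without ΔP2.1, other values in part. Chromosome 8, which holds *Sox1* and *Tubb3*, was at different levels in 2 sets of libraries. Its BL6 share of SNP fragments was 66.8% and 67.1% in BC wt and 67.7% in ΔP4, against 51.1% in ΔE1, 51.6% in ΔE3, 44.2% and 44.5% in female wt and 52.0% and 51.8% in CB wt. Over 635 genes, its median log2 level relative to BC wt was 0.02 in ΔP4, -0.49 in ΔE1, -0.53 in ΔE3, -0.44 and -0.43 in female wt and -0.46 and -0.47 in CB wt. Chromosome 1, which holds none of the 10 genes, was above CB wt by a median of 0.51 in ΔE2.5 (BL6 share 68.4%) and 0.44 in ΔE2.7 (35.3%), against -0.08 in ΔP2.1 (48.7%), so that the clones left without ΔP2.1 also differ from their wt line. Chromosome 12, with *Sox11*, was above male BC wt by 0.42 and 0.41 in female wt.

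All libraries expressed ES cell genes at a high level. The 10 ES cell markers were above 1 TPM in every library and summed to 7859 ± 801 TPM (SD, n = 2) in BC wt and to 6031 ± 45.8 TPM (SD, n = 2) in CB wt. The 10 neural progenitor genes together made up 258 ± 8.83 TPM (SD, n = 2) in BC wt, 253 ± 37.2 TPM (SD, n = 3) in BC KO, 230 ± 2.64 TPM (SD, n = 2) in female wt, 491 ± 5.82 TPM (SD, n = 2) in CB wt and 366 ± 58.6 TPM (SD, n = 3) in CB KO. In a bulk sample, fewer cells of a type and less RNA per cell cannot be told apart. Of the 22 proneural and neuronal genes of a list described below, 17 were above 1 TPM in at least 1 library. In every library 14 were above it, led by *Stmn2* at a mean of 353 TPM. *Neurog1*, *Neurog2* and *Dcx* stayed below 1 TPM in all 12, whereas *Neurod1*, also of this list, passed a minimum of 5 TPM between CB wt and BC wt.

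**Figure D1:**
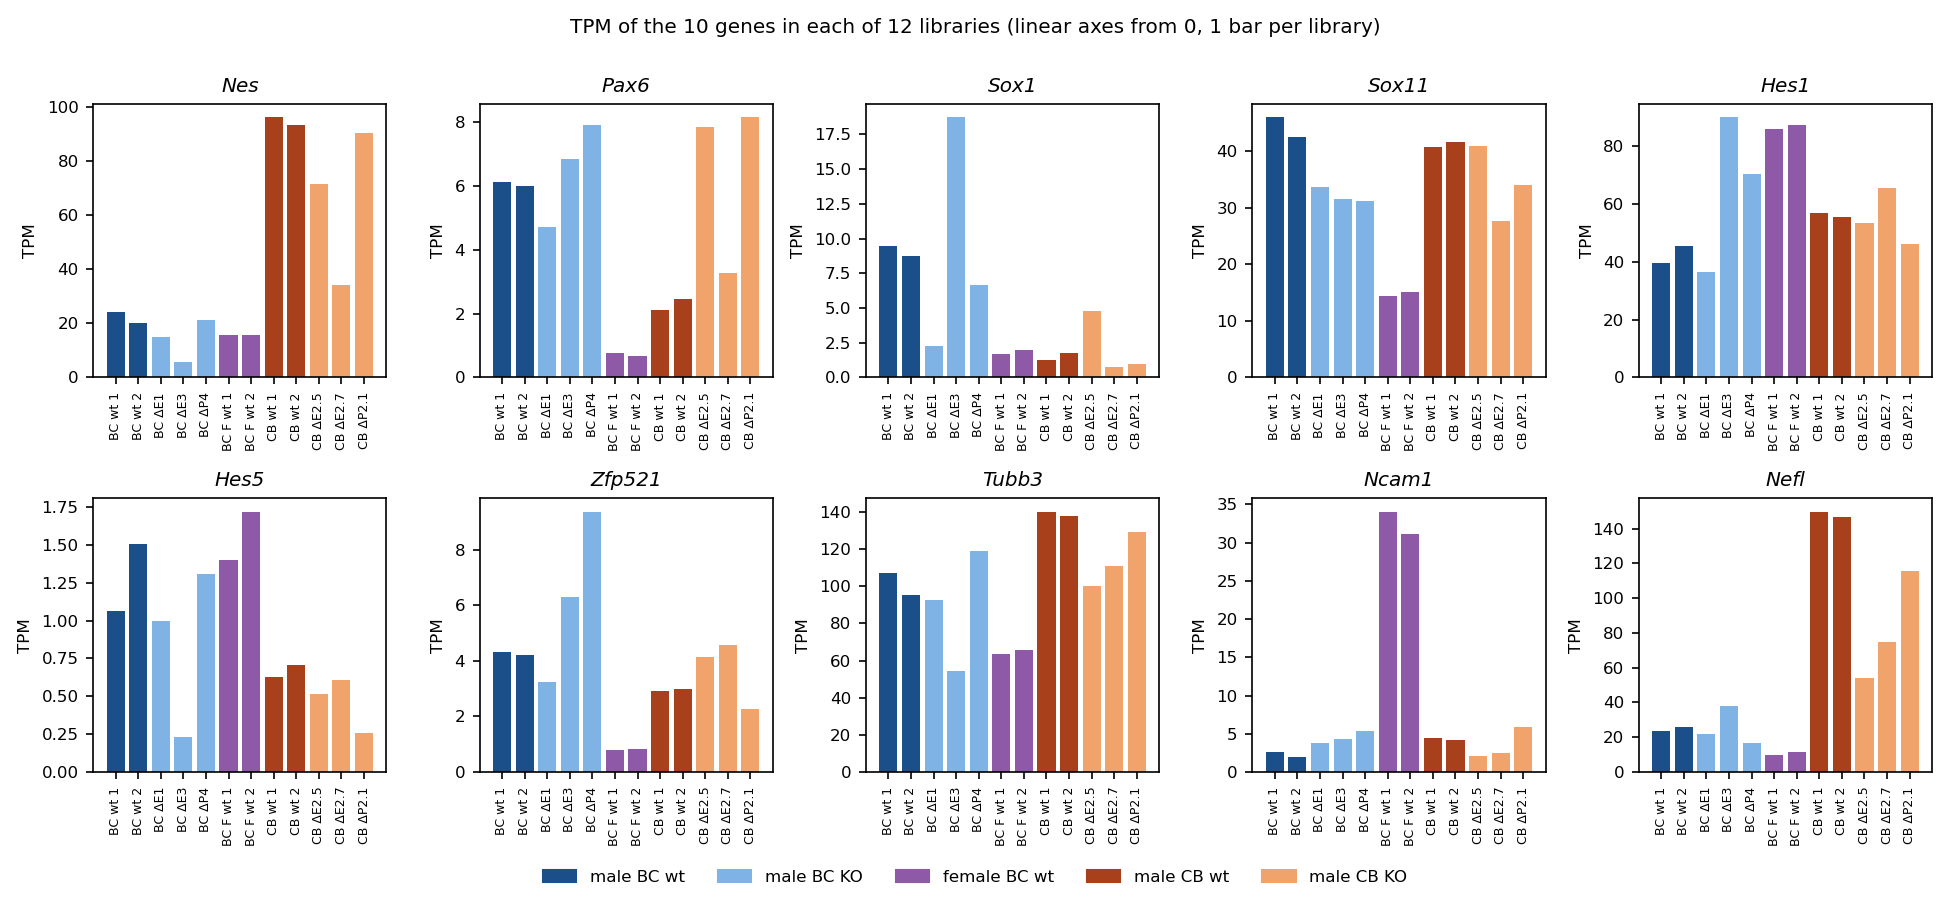
Level of each of the 10 genes in TPM (vertical axes, linear from 0) in each of 12 libraries (horizontal axes), with bars coloured by group. *Nes* and *Nefl* are highest in CB wt, *Ncam1* in female wt, and the KO clones of 1 cross differ from each other for most genes.

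The main question was which of these genes changed when *Kdm6a* was deleted. Clones and wt of a cross were compared with edgeR (quasi-likelihood test). Adjustment followed Benjamini and Hochberg and covered the whole table, and calls needed an adjusted p under 0.05 with a change of at least 1.5-fold. In BC, 0 of 10 genes were called, and the test called 0.029% of 13805 genes. An unadjusted p under 0.05 was found for 2 of the 10 genes and for 1525 of all genes. DESeq2, the method of the study, called 1 of the 10, *Ncam1*, and 1.88% of all genes. The TPM values of clones and wt did not overlap for 2 of the 10 genes, *Sox11* and *Ncam1*, and for 31.8% of all genes tested, a larger share.

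In CB, *Hes5* stayed under the minimum of 1 TPM, and 0 of the 9 genes tested were called by edgeR, which called 0% of 13801 genes. An unadjusted p under 0.05 was found for 2 of the 9 and for 2832 of all genes. DESeq2 called 1 of the 9, *Pax6*, and 3.57% of all genes. Clones and wt did not overlap for 4 of the 9, *Nes*, *Tubb3* and *Nefl* with lower values in the clones and *Pax6* with higher ones, against 47% of all genes. Without ΔP2.1, edgeR called 3 of the 9 genes, *Zfp521*, *Ncam1* and *Nefl*, and 6.76% of all genes. The values then did not overlap for 6 of the 9 and for 66.9% of all genes. Of the genes without a call, *Pax6* was then at 1.37 (adjusted p = 0.118), *Nes* at -0.77 (adjusted p = 0.212) and *Tubb3* at -0.31 (adjusted p = 0.0674) on the log2 scale.

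Whether deletion acted differently in the crosses was tested as the interaction of cross and KO. It called 0 of the 10 genes with edgeR and 0.0629% of 14298 genes, and 0 of the 10 with DESeq2, which called 3.8% of all genes. *Pax6* came nearest in size of change, with a difference between the crosses of 1.51 (standard error 0.50, adjusted p = 0.204) on the log2 scale. Without ΔP2.1, *Ncam1* was called, with a difference of -1.79 (standard error 0.29, adjusted p = 0.0297), among 2.15% of all genes.

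Single clones were compared with the wt of their cross in a fit over all 12 libraries, in which the 3 pairs of wt libraries gave the spread and the lone library of a clone was assumed to vary like them. The clones of a cross scattered more than the wt replicates for most of the 10 genes, so a call says that 1 library differed from wt by more than wt replicates differ, and gives no support to a change over the clones of a cross. Of 57 tests, 25 were called. ΔE3 had 7 of 10 genes called, where the test called 18.9% of all genes, and ΔE2.7 had 6 of 9, where it called 15.6%. In ΔP4, 5 of 10 were called against 12.9% of all genes, and in ΔE2.5 4 of 9 against 17.1%. The remaining clones had fewer, 2 of 10 in ΔE1 against 10.3% of all genes and 1 of 9 in ΔP2.1 against 10.1%. *Ncam1* was called in 5 of 6 clones, *Sox1* and *Nefl* in 4 and *Pax6* in 3, and the direction differed between clones for the first 3 of these.

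**Figure D2:**
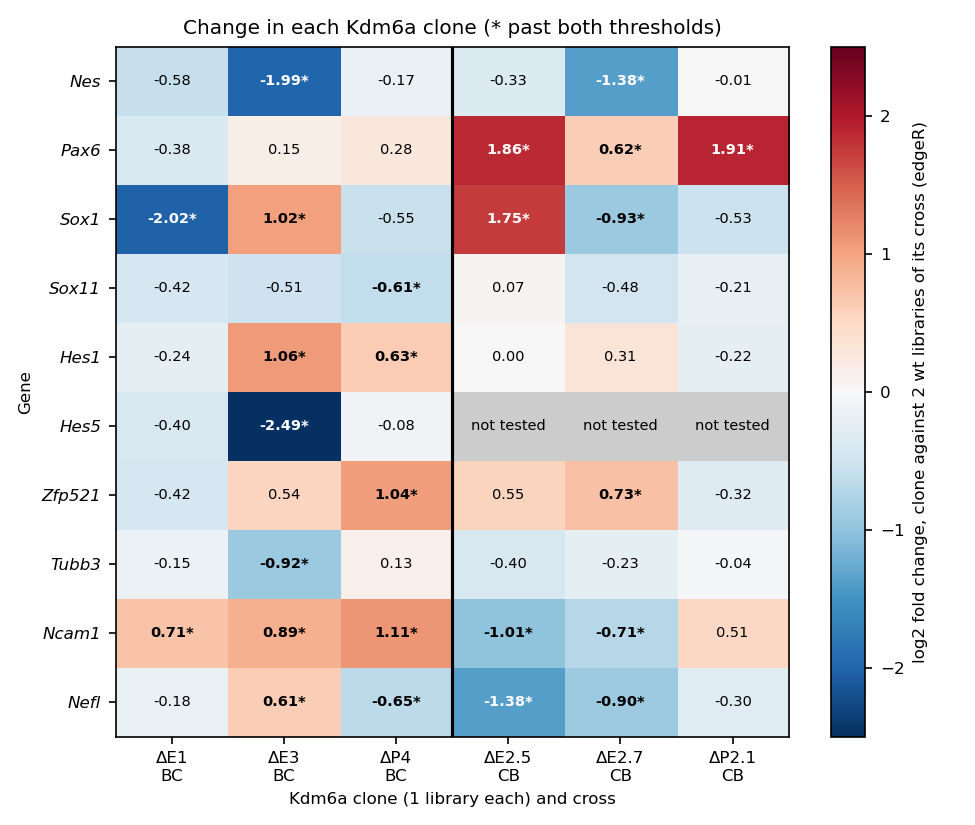
Log2 fold change (colour and printed value) of the 10 genes (vertical axis) in each *Kdm6a* clone against the 2 wt libraries of its cross (horizontal axis), from edgeR, with an asterisk where both thresholds were passed. *Ncam1* is above wt in all BC clones and below it in the exonic CB clones, and *Sox1* changes in opposite directions in clones of the same cross.

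Positions are those of whole genes in GRCm38. *Pax6* (chr2:105668900-105697364) encodes a paired-domain transcription factor of eye, forebrain and spinal cord progenitors. It was at 6.13 and 5.996 TPM in BC wt and at 4.73 (ΔE1), 6.84 (ΔE3) and 7.91 TPM (ΔP4), so that the clones lay on both sides of wt. In CB wt it was at 2.101 and 2.44 TPM, and it was higher in all 3 clones, at 7.84 (ΔE2.5), 3.27 (ΔE2.7) and 8.16 TPM (ΔP2.1). The CB clones thus overlapped the BC wt level, and their mean of 6.42 ± 2.73 TPM (SD, n = 3) was 2.83 times that of CB wt. In CB this was a log2 value of 1.57 (standard error 0.43, adjusted p = 0.17 in edgeR and 0.00785 in DESeq2). The single libraries had log2 fold changes of 1.86 in ΔE2.5, 0.62 in ΔE2.7 and 1.91 in ΔP2.1. The call in ΔE2.7 was lost in DESeq2 (adjusted p = 0.0626) and without wt replicate 1 (adjusted p = 0.0565).

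The protein of *Sox1* (chr8:12395295-12400126) is among the earliest markers of neural commitment. Between clones and wt, *Sox1* had the largest standard error of the 10 genes in BC and of the 9 tested in CB. It was at 9.49 and 8.73 TPM in BC wt, at 2.28 (ΔE1), 18.8 (ΔE3) and 6.66 TPM (ΔP4). The clones of a single editing event therefore lay at opposite ends, with log2 differences from wt of -2.02 in ΔE1 and 1.02 in ΔE3, although chromosome 8 was lower than in wt in both. In CB it was low in wt, at 1.28 and 1.74 TPM, and in the clones at 4.81 (ΔE2.5), 0.739 (ΔE2.7) and 0.996 TPM (ΔP2.1). The log2 difference was 1.75 in ΔE2.5 and -0.93 in ΔE2.7, on 69 fragments in the latter. Over the groups of clones the log2 fold change was -0.01 in BC (standard error 0.72) and 0.61 in CB (standard error 0.85), within the spread between clones.

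*Zfp521*, which encodes a zinc finger protein that promotes the entry of ES cells into the neural lineage, was at 4.33 and 4.20 TPM in BC wt. It was at 3.24 (ΔE1), 6.29 (ΔE3) and 9.38 TPM (ΔP4), and among the BC clones it was called in ΔP4 (log2 fold change 1.04, adjusted p = 5.27e-05). In CB wt it was at 2.91 and 3.001 TPM, with 4.12 (ΔE2.5), 4.59 (ΔE2.7) and 2.26 TPM (ΔP2.1). The exonic clones lay above wt, ΔE2.7 with a call at 0.73, and ΔP2.1 below it. Without ΔP2.1 the log2 fold change in CB was 0.64 (standard error 0.12, adjusted p = 0.0421), against 0.39 (standard error 0.32, adjusted p = 0.517) with it.

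*Nes* (chr3:87971078-87980451) encodes nestin, the intermediate filament protein of neural stem cells. It was at 24.2 and 20.2 TPM in BC wt and at 15.1 (ΔE1), 5.70 (ΔE3) and 21.1 TPM (ΔP4), which overlapped wt. In CB it was at 96.2 and 93.4 TPM in wt, 71.5 (ΔE2.5), 34.1 (ΔE2.7) and 90.2 TPM (ΔP2.1), all lower than wt but ΔP2.1 by little. The group changes were -0.72 in BC (standard error 0.44, adjusted p = 0.587) and -0.47 in CB (standard error 0.38, adjusted p = 0.502). On the log2 scale it fell by 1.99 in ΔE3 and fell by 1.38 in ΔE2.7, with 25.6% and 35.9% of the wt level left.

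The Notch targets differed widely in level. *Hes1* (chr16:30064384-30067796) was at 39.6 and 45.2 TPM in BC wt, 36.5 (ΔE1), 89.9 (ΔE3) and 70.3 TPM (ΔP4). It rose in ΔE3, by 1.06, and in ΔP4, by 0.63, but not in ΔE1, and the call in ΔP4 was lost without wt replicate 1, at 0.52. In CB wt it was at 56.9 and 55.4 TPM, and the clones scattered around these, with 53.4 (ΔE2.5), 65.5 (ΔE2.7) and 46.1 TPM (ΔP2.1). *Hes5* (chr4:154960923-154962371), the other target, was close to the limit of detection at 1.07 and 1.51 TPM in BC wt, 0.995 (ΔE1), 0.230 (ΔE3) and 1.31 TPM (ΔP4). These levels rest on 9 to 61 fragments, and *Hes5* fell by 2.49 in ΔE3 (standard error 0.45, adjusted p = 0.00158), the clone with the highest *Hes1*. In CB it was at 0.626 and 0.709 TPM in wt and at 0.512, 0.610 and 0.255 TPM in the clones, on 6 to 17 fragments.

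*Sox11* (chr12:27334264-27342574), a transcription factor gene of early neurons, was lower in all 3 BC clones. It was at 46.0 and 42.5 TPM in BC wt, 33.7 (ΔE1), 31.5 (ΔE3) and 31.2 TPM (ΔP4). The log2 fold change of -0.50 (standard error 0.11) had an adjusted p of 0.312 in edgeR and 0.00867 in DESeq2 and stayed under 1.5-fold. In ΔP4 alone of the clones the decrease was called, at -0.61, and without wt replicate 1 it was -0.56 and under 1.5-fold. In CB it was at 40.8 and 41.6 TPM in wt, 41.0 (ΔE2.5), 27.7 (ΔE2.7) and 34.1 TPM (ΔP2.1), and ΔE2.5 lay between the wt replicates.

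*Tubb3* (chr8:123411424-123422015) is the gene of the class III beta-tubulin of neurons. It was at 107 and 95.5 TPM in BC wt, 92.5 (ΔE1), 54.4 (ΔE3) and 119 TPM (ΔP4). The decrease in ΔE3 was called at -0.92, but relative to the median of chromosome 8 it was -0.42 and no longer past 1.5-fold. In CB wt it was at 140 and 138 TPM, above all clones, which were at 100 (ΔE2.5), 111 (ΔE2.7) and 129 TPM (ΔP2.1). The group change in CB was -0.22 (standard error 0.12, adjusted p = 0.345). The diploid counts held 64.4% to 72.4% of the *Tubb3* fragments mapped to the BL6 genome alone in BC libraries and 94.3% to 95.1% in CB libraries, which lowers the BC values relative to the CB ones. For the other 9 genes this share was at least 95.1% in every library.

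*Ncam1* (chr9:49502136-49798925) encodes a neural cell adhesion molecule. It was at 2.66 and 1.95 TPM in BC wt and higher in all BC clones, at 3.82 (ΔE1), 4.34 (ΔE3) and 5.32 TPM (ΔP4). On the log2 scale this came to 0.92 (standard error 0.22, adjusted p = 0.331 in edgeR and 0.0104 in DESeq2), and the single libraries were at 0.71 (ΔE1), 0.89 (ΔE3) and 1.11 (ΔP4). The call in ΔE1 was lost without wt replicate 2, at 0.51. In CB wt it was at 4.49 and 4.17 TPM. The exonic clones were lower, at 2.04 TPM in ΔE2.5 and 2.49 TPM in ΔE2.7, and ΔP2.1 was higher, at 5.89 TPM. Without ΔP2.1 the CB change was -0.85 (standard error 0.15, adjusted p = 0.0397), against -0.25 (standard error 0.46, adjusted p = 0.788) with it.

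*Nefl* (chr14:68083863-68089095), the gene of the neurofilament light chain, was at 23.5 and 25.6 TPM in BC wt, 22.0 (ΔE1), 38.2 (ΔE3) and 16.8 TPM (ΔP4). It rose by 0.61 in ΔE3 and fell by 0.65 in ΔP4, calls that were lost without wt replicate 1 (0.54) and without wt replicate 2 (-0.56) in turn, and the group change of 0.03 (standard error 0.34) was within this scatter. In CB wt it was at 150 and 147 TPM, and all clones were lower, at 54.1 (ΔE2.5), 74.6 (ΔE2.7) and 115 TPM (ΔP2.1). The CB change was -0.79 (standard error 0.30, adjusted p = 0.228) and without ΔP2.1 -1.12 (standard error 0.17, adjusted p = 0.0332). Its neighbour *Nefm*, the medium chain gene on the opposite strand, overlaps it in the annotation, and the libraries did not keep the strand. *Nefm* was at 60.6 and 59.7 TPM in CB wt and at 38.5, 35.3 and 50.3 TPM in the CB clones.

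Unedited lines were compared next. Between male CB wt and male BC wt, 7 of the 10 genes were called by edgeR, which called 34.5% of 13828 genes. *Nefl* was 6.03 times as high in CB wt (log2 fold change 2.52, standard error 0.06) and *Nes* 4.27 times (2.03, standard error 0.08), and *Ncam1* was higher by 0.84, a call that was lost with all 12 libraries in the variance (adjusted p = 0.115), as were those of *Zfp521* (0.255) and *Hes5* (0.205). Among the transcription factors, *Sox1* was 6.05 times as high in BC wt (log2 fold change -2.66, standard error 0.13) and *Pax6* 2.67 times (-1.49, standard error 0.11), with *Zfp521* lower in CB wt by a log2 value of -0.60 and *Hes5* by -1.02. The call of *Hes5* was lost in DESeq2, at an adjusted p of 0.0932, and in edgeR without BC wt replicate 2 (-0.73, adjusted p = 0.094), CB wt replicate 1 (-0.92, adjusted p = 0.0911) or CB wt replicate 2 (-1.11, adjusted p = 0.0538). That of *Zfp521* was lost without CB wt replicate 1, at -0.56, and from the BL6 genome counts, at -0.55. *Hes1*, *Sox11* and *Tubb3* differed by less than 1.5-fold. Relative to the median of chromosome 8, lower in CB wt, *Sox1* was at -2.19 and *Tubb3*, now past both thresholds, at 0.87 (adjusted p = 2.85e-05). From the BL6 genome counts *Tubb3* was at -0.063 (adjusted p = 0.244), so its direction turned with the counts used. Cross, line and transgene cannot be told apart in this comparison.

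Between female and male BC wt, 8 of the 10 were called, and the test called 44.5% of 14049 genes. *Ncam1* was at 34.1 and 31.1 TPM in the female libraries, 14.1 times the male level (log2 fold change 3.77, standard error 0.12), and *Hes1* was at 85.7 and 87.2 TPM, higher by 0.97. The transcription factors were low in female cells. *Pax6* was at 0.773 and 0.659 TPM (log2 fold change -3.13, standard error 0.13), *Zfp521* at 0.783 and 0.834 TPM (-2.46, standard error 0.11) and *Sox1* at 1.67 and 1.95 TPM (-2.39, standard error 0.11). *Sox11* was at 14.4 and 15.1 TPM (-1.64), *Nefl* at 9.89 and 11.5 TPM (-1.26) and *Tubb3* at 63.6 and 65.9 TPM (-0.70), all below male wt. Relative to the chromosome median, *Sox1* was at -1.92 and *Tubb3* at -0.23, and the call of *Tubb3* was lost. With all 12 libraries in the variance, that of *Sox1* was lost, at an adjusted p of 0.0529. *Nes*, at 15.9 and 15.9 TPM (-0.54), and *Hes5*, at 1.40 and 1.72 TPM, did not pass both thresholds. Without male BC wt replicate 2, *Nes* was at -0.65 and past 1.5-fold. This comparison and the previous one share the male BC wt libraries, and sex cannot be told apart from the cell line.

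**Figure D3:**
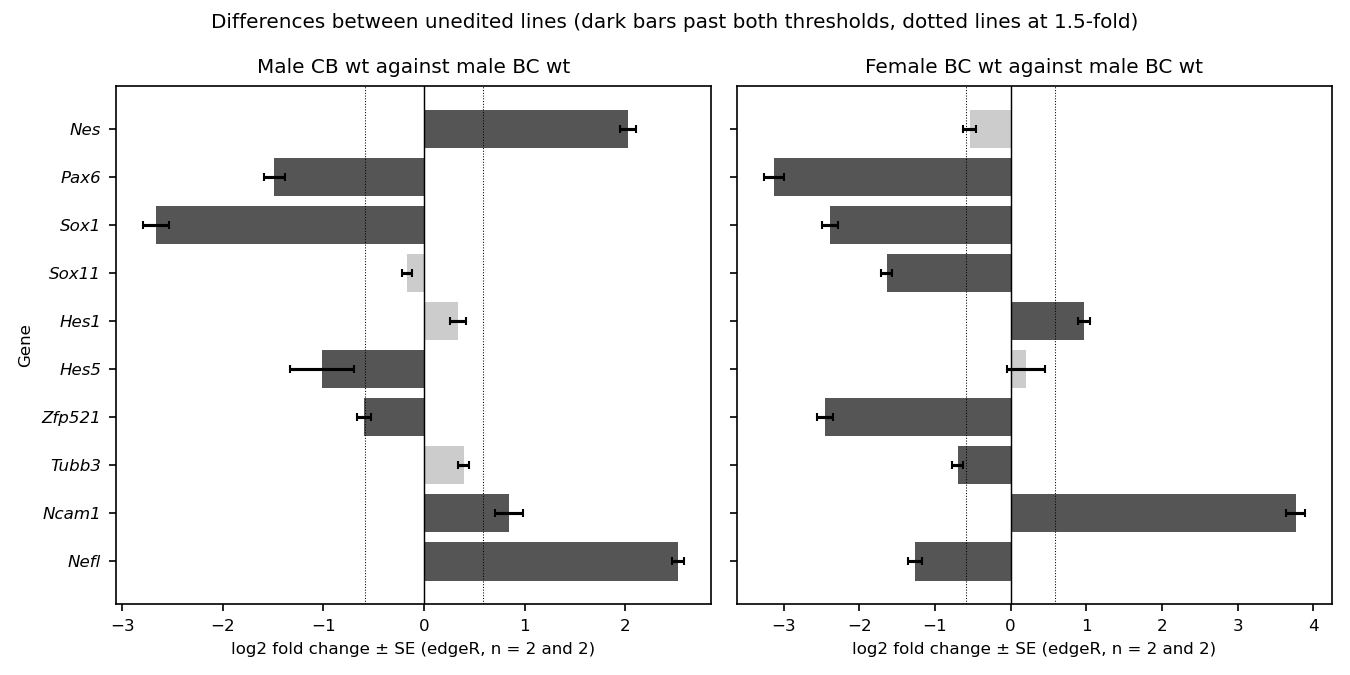
Log2 fold change with its standard error (horizontal axes) of the 10 genes (vertical axis) between unedited lines, from edgeR with 2 libraries in each group. *Nes* and *Nefl* are higher in CB wt, *Pax6*, *Sox1* and *Zfp521* are lower in both CB wt and female wt than in male BC wt, and *Ncam1* has its largest difference in female wt.

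SNPs between BL6 and cast gave the share of each allele. *Hes1* had 0 SNP fragments in all libraries and *Hes5* at most 8, so that no share is given for either. *Nes* stayed near parity, with a BL6 share between 47.1% and 56.4% in all 12 libraries, whatever its level. Maternal fragments were tested apart from paternal ones in KO against wt. In BC, edgeR called 0 of 8 genes on the maternal allele, where it called 0.0326% of all genes and DESeq2 called 0 of 8 and 0.367% of all genes. An unadjusted edgeR p under 0.05 was found for 1 of these 8 and for 953 of 12278 genes. On the paternal allele edgeR called 0 of 9, with 0% of all genes, and 2 of 9 and 802 of 11061 genes were at an unadjusted p under 0.05, and DESeq2 called 1 of 9, *Sox11*, with 0.316% of all genes. In CB, edgeR called 0 of 8 on the maternal allele, with 0% of all genes, and 2 of 8 and 1676 of 12120 genes were at an unadjusted p under 0.05, and DESeq2 called 1 of 8, *Nefl*, with 0.85% of all genes. On the paternal allele edgeR called 0 of 8, with 0% of all genes, and 3 of 8 and 1346 of 11365 genes were at an unadjusted p under 0.05, and DESeq2 called 0 of 8, with 1.05% of all genes. Without ΔP2.1, edgeR still called 0 of 8 on the maternal and 0 of 7 on the paternal allele in CB, with 0.491% and 0.375% of all genes. An unadjusted p under 0.05 was then found for 4 of the 8 and 5 of the 7, and for 2560 of 12022 and 2375 of 11209 genes.

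The higher *Ncam1* of the BC clones lay more on the paternal, cast allele. The log2 fold change was 1.19 on the paternal allele (adjusted p = 0.517 in edgeR and 0.086 in DESeq2) and 0.33 on the maternal one, a difference that was not tested. The BL6 share was 43.4% and 51.6% in BC wt, 35.9% in ΔE1, 36.3% in ΔE3 and 27.3% in ΔP4 (95% Wilson interval 21.8% to 33.6%). For *Sox11* the changes in BC were -0.66 on the paternal allele (adjusted p = 0.449 in edgeR and 0.0447 in DESeq2) and -0.34 on the maternal one. In CB, *Pax6* was higher on both alleles, by 1.72 on the maternal and 1.76 on the paternal one (adjusted p = 0.276 and 0.365). Both CB wt libraries had fewer than 20 SNP fragments of *Pax6*. *Nefl* was lower on both, by -1.10 on the maternal and -0.78 on the paternal allele (adjusted p = 0.233 and 0.386 in edgeR, 0.00514 and 0.284 in DESeq2), and its BL6 share stayed between 55.5% and 62.5% in the CB libraries.

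Over the male wt of both crosses, strain and parent of origin were fitted together, which called 29.7% of 11847 genes for the strain and 10.5% for the parent. *Sox11* (log2 ratio of BL6 to cast -3.61) and *Tubb3* were called for the strain, and *Sox11* (maternal to paternal 3.76) and *Sox1* for the parent. Each cross has a single male wt line in this fit, so an imbalance in a single line enters both terms. The RNA shares of the regions around these genes were uneven in some wt libraries and near even in others. Which alleles the DNA carried was not measured here. The BL6 share of *Sox11* was 55.9% and 55.1% in BC wt and 0.434% and 0.775% in CB wt. It was 0.323% in ΔE2.5 and 0.329% in ΔE2.7 but 52.4% in ΔP2.1. In female wt, which had a BL6 mother, it was 2.64% and 2.92%. There the paternal allele prevailed, the opposite of the maternal direction of the fit. The 23 genes within 5 Mb of *Sox11* had a median BL6 share of 53.3% and 53.6% in BC wt, 28.2% and 29.7% in CB wt, 30.8% in ΔE2.5, 29.5% in ΔE2.7, 51.6% in ΔP2.1 and 22.3% and 23.6% in female wt. *Sox11* lay below the lowest of these neighbours in CB wt, where it was at 3.50% and 1.68%, and in female wt, where it was at 4.61% and 3.98%. *Sox11* in CB wt was at 41.2 ± 0.591 TPM (SD, n = 2) from cast fragments almost alone, against 44.3 ± 2.46 TPM (SD, n = 2) in BC wt from both alleles.

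*Sox1* had a BL6 share of 70.6% and 71.0% in BC wt, 53.6% in ΔE1, 61.8% in ΔE3, 76.1% in ΔP4 and 42.9% and 44.4% in CB wt. The 33 genes within 5 Mb had medians of 64.0% and 65.1% in BC wt and of 50.2% and 49.5% in CB wt. Single neighbours ran from 54.2% to 100% and from 57.4% to 100% in BC wt, so that *Sox1* lay within their range. The 95% Wilson intervals of *Sox1* lay above the median of its neighbours in both BC wt libraries (65.8% to 74.95% and 66.1% to 75.5%). In CB wt, where they rest on 15 BL6 and 20 cast fragments and on 16 and 20, they contained it (28.0% to 59.1% and 29.5% to 60.4%). The neighbours were at 48.9% in ΔE1, 49.9% in ΔE3 and 65.6% in ΔP4, and the interval of *Sox1* contained that value in ΔE1 (43.7% to 63.2%) and lay above it in ΔE3 (58.1% to 65.3%) and ΔP4 (70.2% to 81.0%). These intervals cover counting error only, and single neighbours reached 100% in the BC clones as well. The part of the region in the maternal call of *Sox1* (log2 difference 0.75) was not tested. *Tubb3* was at 76.1% and 78.3% in BC wt, where the median of its 85 neighbours was 66.1% and 67.3%. In CB wt it was at 85.7% and 85.9%, where this median was 51.9% and 51.8%. The BL6 share of *Tubb3* was thus above the median of the region in both male wt lines. Single neighbours reached 94.2% and 95.5% in BC wt, above *Tubb3*, but 80.4% and 85.7% in CB wt. The joint fit gave a log2 ratio of BL6 to cast of 2.08, which includes the uneven share of the region in BC wt. In female wt the share of *Tubb3*, at 48.0% and 47.7%, was near the 47.4% and 47.1% of the neighbours. The loss of *Tubb3* fragments from the diploid counts in BC was not tested as a source of this difference.

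**Figure D4:**
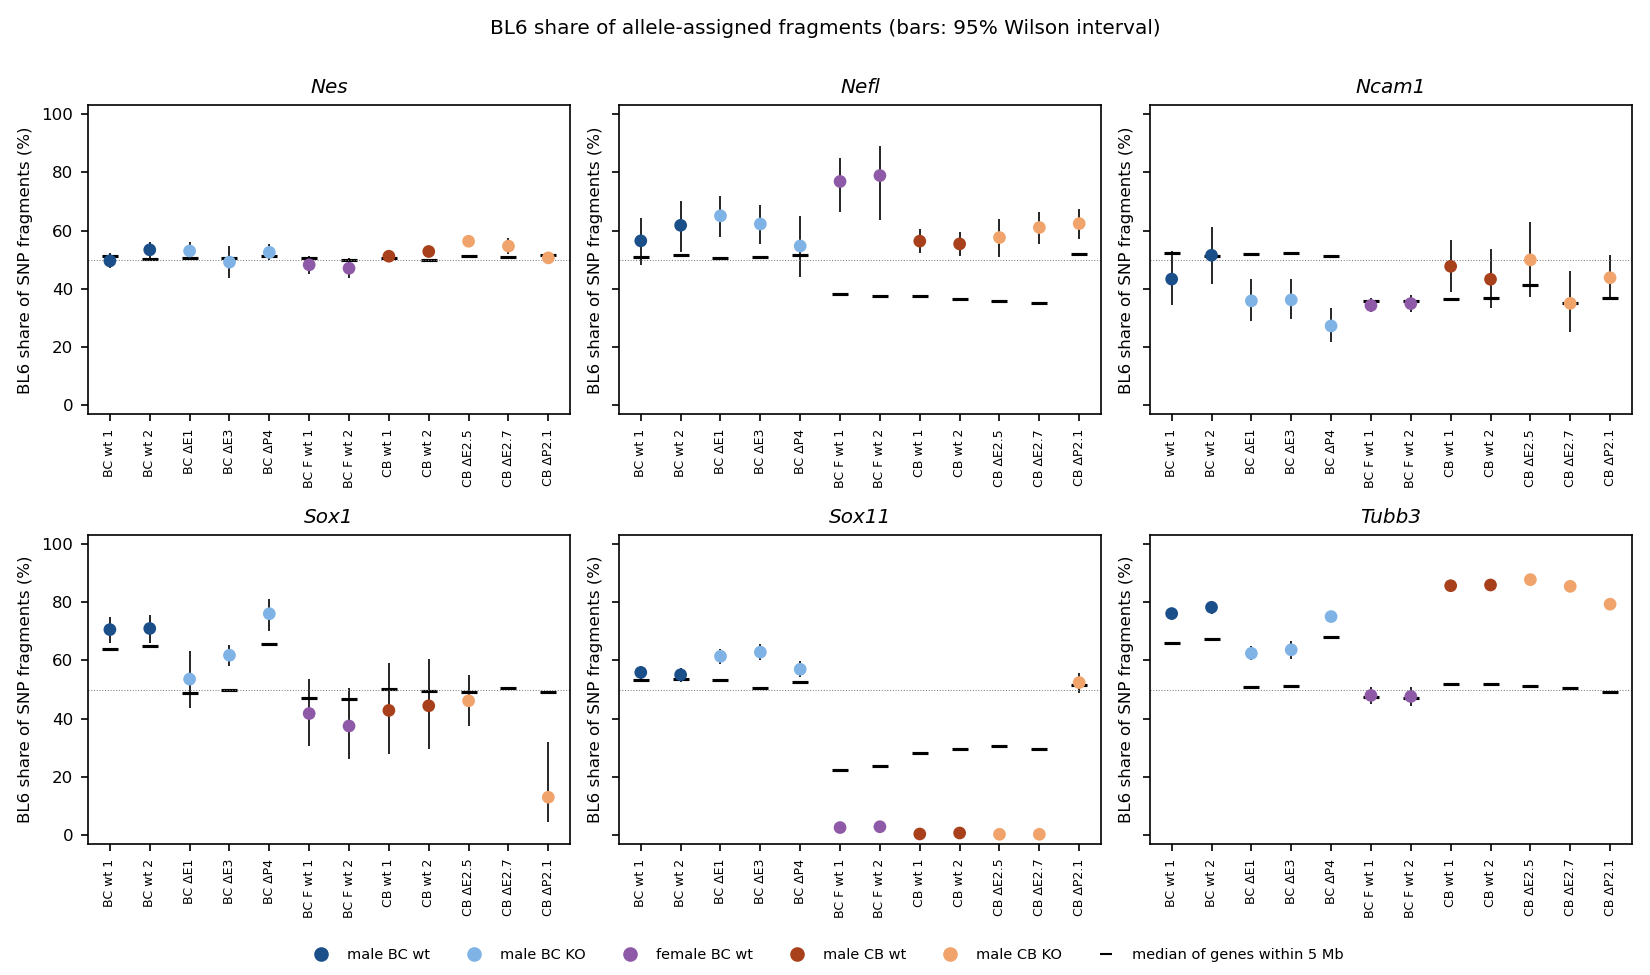
BL6 share of the SNP fragments in percent (vertical axes) of 6 genes in each library (horizontal axes), with 95% Wilson intervals, which cover counting error only, and with dashes for the median share of genes within 5 Mb. Points are left out under 20 SNP fragments. *Sox11* has almost no BL6 fragments in female wt and in CB libraries other than ΔP2.1, and *Nes* is near 50% throughout.

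The other genes of the pathway were read from lists of progenitor transcription factors (27 genes), the Notch pathway (22), proneural and neuronal genes (22) and the progenitor cytoskeleton and surface (8). KO against wt called 0 of them with edgeR, of 16, 19, 16 and 8 tested in BC and 14, 17, 17 and 8 in CB. An unadjusted p under 0.05 was found for 5, 3, 5 and 1 of these in BC and for 3, 4, 2 and 1 in CB, against 1525 of 13805 and 2832 of 13801 genes. The median log2 changes in BC were 0.16, -0.09, -0.08 and -0.15 in that order, and in CB 0.28, -0.19, 0.09 and -0.04, against 0.01 over all genes tested in either cross. Without ΔP2.1 the CB medians were 0.23, -0.32, 0.15 and -0.0004, against 0.01 over all genes. An unadjusted p under 0.05 was then found for 5 of 13, 8 of 17, 3 of 17 and 2 of 8, against 4871 of 13720 genes. DESeq2 called 1 of 16 transcription factor genes higher and 2 lower in the BC clones and 1 of 16 neuronal genes higher, against 1.88% of all genes. In CB it called 1 of 14 transcription factor genes higher (*Sox2*) and 2 of 17 Notch genes lower (*Notch3* and *Nrarp*), against 3.57% of all genes. Genes called by DESeq2 alone were named after their values were seen. Without ΔP2.1, edgeR called 1 of 13 transcription factor genes higher in the CB clones (*Sox2*, 0.80), 3 of 17 Notch genes lower (*Notch3*, *Notch2* and *Jag1*), 2 of 17 neuronal genes lower (*Nefm* and *Syt1*) and 1 of 8 cytoskeleton genes lower (*Vim*, -0.85), against 6.76% of all genes.

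Of the 3 genes with the smallest p in BC, the X-linked *Sox3*, a close relative of *Sox1*, was at 19.97 and 19.8 TPM in wt and at 8.47 (ΔE1), 9.24 (ΔE3) and 6.89 TPM (ΔP4) (log2 fold change -1.31, standard error 0.19, adjusted p = 0.217 in edgeR and 1.09e-06 in DESeq2). *Rfng*, a glycosyltransferase of Notch receptors, was at 38.1 and 38.4 TPM in wt and at 26.05, 27.8 and 26.5 TPM in the clones, a change of -0.55 (standard error 0.12, adjusted p = 0.325). *Sox4*, a relative of *Sox11*, changed by -0.47 (standard error 0.11, adjusted p = 0.328). All 3 lay below wt in every BC clone, but they were picked by their p in this same comparison. Clones and wt did not overlap for 31.8% of all genes tested in BC.

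In CB, *Sox2*, which is shared by ES cells and neural progenitors, was at 372 and 379 TPM in wt and at 602 (ΔE2.5), 629 (ΔE2.7) and 484 TPM (ΔP2.1) (log2 fold change 0.69, standard error 0.13, adjusted p = 0.132 in edgeR and 0.000429 in DESeq2). *Prom1*, a membrane protein gene of stem cells, was at 55.0 and 54.5 TPM in wt and at 36.3, 36.5 and 35.1 TPM in the clones, a change of -0.53 (standard error 0.07, adjusted p = 0.11). *Ina*, of the neuronal filament alpha-internexin, changed by 0.42 (standard error 0.07, adjusted p = 0.129). For the interaction the smallest p were those of *Rfng* (0.70, standard error 0.16, adjusted p = 0.118), *Sox3* (1.36, standard error 0.33, adjusted p = 0.128) and *Ina* (0.64, standard error 0.20, adjusted p = 0.19), and 0 genes of the 4 lists were called by edgeR, with 3 of 17, 2 of 19, 2 of 17 and 0 of 8 at an unadjusted p under 0.05, against 2395 of 14298 genes. DESeq2 called *Rfng* and *Sox3* there, and 3.8% of all genes.

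Between the wt lines, the progenitor transcription factors had 4 of 15 genes called higher and 6 lower in CB wt than in BC wt, and 1 of 15 higher and 8 lower in female wt than in BC wt, where 34.5% and 44.5% of all genes were called. *Olig2*, a factor of motor neuron and oligodendrocyte progenitors, was at 33.8 and 32.2 TPM in BC wt and between 28.2 and 72.1 TPM in the BC clones, but at 0.168 and 0.105 TPM in CB wt and 0.636 and 0.567 TPM in female wt. *Gbx2*, also of this list, was at 94.8 and 101 TPM in BC wt, 19.6 and 18.2 TPM in CB wt and 21.9 and 25.7 TPM in female wt. The list shares *Sox2* with the ES cell markers and *Otx2* and *Pou3f1* with the formative epiblast markers given below, so its changes are not those of neural genes alone. The cytoskeleton and surface genes had 4 of 8 called higher and 1 lower in CB wt, and 1 higher and 2 lower in female wt. Among those higher in CB wt were *Vim* at 435 and 447 TPM against 165 and 162 TPM in BC wt, and *Prom1* (log2 fold change 2.27). Of the Notch genes, 6 of 18 were higher and 2 lower in CB wt, with *Notch3* higher by 1.58, and 4 of 19 were higher and 5 lower in female wt, with *Notch4* higher by 1.63 and *Dll3* lower by -1.87. The proneural and neuronal genes had 5 of 17 higher and 2 lower in CB wt, and 6 of 16 higher and 7 lower in female wt, where *Mapt*, the gene of tau, was higher by 2.22.

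Markers of other cells moved with some of these groups. The 12 embryonic fibroblast markers, of the feeder cells, summed to 793 ± 11.8 TPM (SD, n = 2) in CB wt and 88.1 ± 3.04 TPM (SD, n = 2) in BC wt, and 8 of 11 were called higher and 1 (*Thy1*) lower in CB wt, against 34.5% of all genes called in either direction. The most abundant was *Acta2*, at 692 and 683 TPM in CB wt, 46.2 (ΔE2.5), 257 (ΔE2.7) and 960 TPM (ΔP2.1). *Col1a1* was at 56.3 and 52.1 TPM in CB wt, 7.54 (ΔE2.5), 19.9 (ΔE2.7) and 102 TPM (ΔP2.1). *Lum* was below 1 TPM in every library, *Dcn* reached 4.77 TPM and *Postn* 1.27 TPM. In CB KO, 10 of the 11 fibroblast markers tested had lower values than wt, with a median log2 change of -0.39. Without ΔP2.1 this median was -1.40, and edgeR called 2 of the 11 lower, with 6.76% of all genes. In the BC clones the fibroblast markers summed to 92.3 (ΔE1), 30.9 (ΔE3) and 46.4 TPM (ΔP4). *Nes* and *Vim* are also made by fibroblasts, and the part of such cells in the CB levels was not tested. The mesoderm and endoderm markers summed to 187 ± 1.02 TPM (SD, n = 2) in CB wt and 29.3 ± 0.501 TPM (SD, n = 2) in BC wt, mostly from *T*, at 119 and 117 TPM in CB wt. In the CB clones they summed to 68.8 (ΔE2.5), 295 (ΔE2.7) and 50.4 TPM (ΔP2.1). In female wt the ES cell markers summed to 16757 ± 995 TPM (SD, n = 2) and 6 of 10 were called higher than in male BC wt, while 5 of the 6 formative epiblast markers were called lower, against 44.5% of all genes called in either direction. In BC KO the formative markers summed to 407 ± 123 TPM (SD, n = 3) against 761 ± 20.97 TPM (SD, n = 2) in BC wt. There edgeR called 0 of the 6, with 0.029% of all genes, and DESeq2 called 3 of the 6 lower, with 1.88% of all genes. The part of these states in the levels of the 10 genes was not tested.

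**Figure D5:**
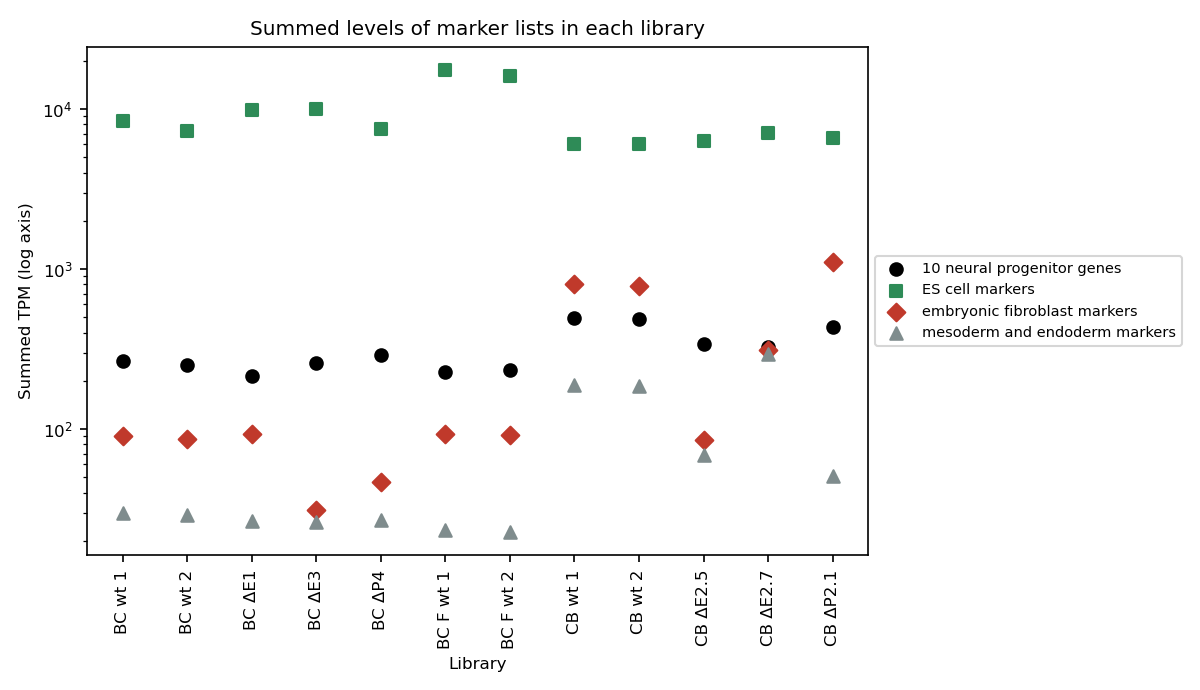
Summed TPM (vertical axis, log scale) of the 10 neural progenitor genes and of marker lists for ES cells, embryonic fibroblasts and mesoderm and endoderm in each library (horizontal axis). ES cell markers are far above the other lists in all 12 libraries, and the fibroblast and mesoderm and endoderm sums are high in CB wt and uneven among the CB clones.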

How the data were processed

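Bulk RNA-seq of 12 libraries was used. The authors mapped 75 bp single-end reads to the BL6 genome (mm10) and to a pseudo-cast genome with TopHat and Bowtie2 2.2.5, kept unique reads with a mapping quality of at least 30, and split reads with a SNP by allele. They deposited estimated count values per gene, without normalization and with replicates apart, for the BL6 genome, the cast genome, either genome (diploid) and BL6 and cast SNP fragments. Other data types were not used here. Diploid fragments per library ranged from 49975599 to 89070402, and 49975599 to 53407103 in CB.

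TPM was computed here from diploid counts and the longest transcript with a RefSeq match in GENCODE M21 (GRCm38). By symbol 23310 genes matched, and the 1036 others received the median length of 2284 bp. Estimated counts were rounded, normalized by TMM and tested by quasi-likelihood in edgeR 4.0.16 (limma 3.58.1, R 4.3.3). Standard errors given for edgeR are the absolute log2 fold change divided by the square root of the F value of the test. They are thus derived from the test and approximate. Genes above 1 TPM in 1 library of a comparison were tested, or for alleles an allelic TPM of at least 1, and the genes of the second deletion of ΔE1 and ΔE3 (*Pdha1*, *Map3k15*, *Sh3kbp1*) did not enter comparisons with BC clones. DESeq2 1.42.0 was run as an alternative. Shares of BL6 fragments needed 20 SNP fragments and have Wilson intervals at the 95% level, which cover counting error only. A gene counted as showing 1 allele at a BL6 share under 10% or over 90%, and both at 25% to 75%.

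The members, the gene lists and the tests were chosen with earlier results of these data known. All 10 genes are named, and of the other lists the genes called, or the 3 with the smallest p above 5 TPM where fewer than 3 were called. Between wt lines, with DESeq2, and in CB without ΔP2.1, not every called gene of the other lists is named. Some results of these lists are not reported here. Python 3.11.15, pandas 2.3.3, numpy 2.4.6, scipy 1.17.1 and matplotlib 3.10.9 were used.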

Additional observations from a re-analysis of the deposited data

How the results depend on the processing

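The calls of the KO comparisons depended on the test and on 1 library. With DESeq2 in place of edgeR, 1 of the 10 genes was called in BC (*Ncam1*), 1 in CB (*Pax6*), 1 on the paternal allele in BC and 1 on the maternal allele in CB. Leaving out 1 library at a time gave 0 to 3 called genes in CB, with 3 without ΔP2.1, and 0 to 1 for the interaction. It gave 3 to 5 for ΔP4, with 3 without wt replicate 1, and 1 to 2 for ΔP2.1. Between CB wt and BC wt, 4 of the 10 genes were called with a minimum of 5 TPM and 4 with all 12 libraries in the variance, against 7. *Hes5*, *Zfp521* and *Ncam1* stayed under 5 TPM in these wt libraries and so could not be called at that minimum. The shares of all genes called under both alternatives are not given here. For the other alternatives with a count of called genes, that count moved by no more than 1.5 times.

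Directions changed for values near 0 and for chromosome 8. Relative to the chromosome median, *Sox1* in BC KO was at 0.39 and *Tubb3* at 0.044, and the interaction of *Tubb3* at -0.26. With ΔE1 and ΔE3 averaged, *Nefl* in BC KO was at -0.12 and the interaction of *Tubb3* at -0.0905. From BL6 genome counts, *Tubb3* differed between CB wt and BC wt by -0.063. Leaving out 1 library moved the log2 change in BC KO from -0.0851 to 0.23 for *Pax6*, from -1.10 to 0.45 for *Sox1*, from -0.48 to 0.00174 for *Tubb3* and from -0.39 to 0.28 for *Nefl*. In CB KO it ran from -0.72 to 1.01 for *Sox1*, from -0.11 to 0.17 for *Hes1* and from -0.85 to 0.025 for *Ncam1*. For the interaction it ran from -0.12 to 0.64 for *Nes*, from -0.70 to 1.70 for *Sox1*, from -0.24 to 0.62 for *Hes5*, from -0.44 to 0.23 for *Zfp521* and from -0.23 to 0.25 for *Tubb3*. It ran from -0.0337 to 0.50 for *Hes5* between female and male wt and from -0.0464 to 0.11 for *Nefl* between maternal and paternal alleles. Where no value above shows it, the cause was not tested.

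With the replicate number as a replicate block, 7 genes were called between CB wt and BC wt and 8 between female and male wt, as without it. The shares of all genes called with the block are not given here. With so few libraries the block leaves few degrees of freedom, so the unchanged counts say little. Same-numbered wt libraries deviated together with a correlation of 0.202 between BC and CB and 0.211 between male and female BC, but 0.023 between female BC and CB, over 2 numbers. The labels give KO clones names and no replicate numbers, so no block was fitted for them. TPM from the union of exons was 0.390 to 0.396 times the values given for *Pax6* and 1.02 to 1.49 times for the other 9, so that ranks of *Pax6* among genes depend on its length. The values of *Hes5* and of the *Pax6* alleles rest on few fragments.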
